A study of Mus musculus with 4 samples.

Results

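The NKR-P1 receptors and their Clec2 partners are C-type lectin-like membrane proteins encoded side by side in the NK gene complex. They were followed here as transcripts in Ly49H+ NK cells that lacked or carried TNFR2 during murine cytomegalovirus (MCMV) infection. The family was taken by gene symbol: 5 receptor genes (Klrb1, Klrb1a, Klrb1b, Klrb1c and Klrb1f) and 3 Clec2 genes (Clec2d, Clec2i and Clec2g), 8 of the 35798 genes in the table. All 8 had enough counts to be tested, among 13822 genes tested in all.

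Ly49H+ NK cells of adult wild-type donors carrying CD45.1 and of TNFR2 knockout (KO) donors carrying CD45.2 were transferred together into NSG mice, a strain with no T, B or NK cells of its own but with myeloid cells. The hosts were infected with MCMV a day later, and Ly49H+ cells bearing either CD45 allele were sorted from the spleen on D3.5. Each of the 4 libraries came from the pooled spleens of 3 hosts, and the wild-type and the TNFR2 KO library with the same number came from the same pool, so there were 2 libraries per genotype. Genotype, CD45 allele and sort gate cannot be told apart in this design, and the donors' TNFR2 deletion was not limited to NK cells. The paper does not state which CD45 allele the NSG hosts carry, and how far host cells entered each gate was not tested. The p-values measure the spread between these pools of mice. The paper reports a single experiment done in duplicate, so they do not cover the spread between experiments.

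In mice, NKR-P1 receptors divide into activating and inhibitory forms that sit on NK cells, and several of them bind Clec2 (Clr) proteins on neighbouring cells. NKR-P1C, encoded by Klrb1c, is the NK1.1 antigen by which NK cells of B6 mice are recognised, and it signals through the ITAM-bearing FcRγ chain. NKR-P1A (Klrb1a) and NKR-P1F (Klrb1f) are also grouped with the activating forms. NKR-P1B (Klrb1b) and NKR-P1G (Klrb1) carry an ITIM, the tail motif through which inhibitory receptors recruit the phosphatase SHP-1. Clr-b (Clec2d) is the widely expressed ligand of NKR-P1B, Clr-g (Clec2i) binds NKR-P1F and NKR-P1G, and Clec2g encodes a further Clr protein.

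The receptor tails show what separates the forms. The stretch below runs for 42 codons (126 bases) from a start codon, in coding sequence of GENCODE M21 on GRCm38, with the codons of 2 searched motifs in capitals: the ITIM (isoleucine, leucine or valine, any residue, tyrosine, any 2 residues, then isoleucine, leucine or valine, also with serine in the first place) and the cysteine-any-cysteine-proline motif known to bind the kinase Lck. The coding strand was searched, in frame, and each stretch begins at the last in-frame ATG among the first 50 codons of transcript 201 of the gene.
Klrb1 (chr6:128713632-128723046, minus strand, crossing an intron): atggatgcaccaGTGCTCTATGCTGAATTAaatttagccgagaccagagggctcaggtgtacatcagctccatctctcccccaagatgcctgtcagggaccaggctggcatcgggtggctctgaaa
Klrb1b (chr6:128821003-128826246, minus strand, crossing an intron): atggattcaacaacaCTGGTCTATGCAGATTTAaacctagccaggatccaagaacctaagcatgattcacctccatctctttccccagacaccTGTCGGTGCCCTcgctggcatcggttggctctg
Klrb1a (chr6:128620310-128622815, minus strand, crossing an intron): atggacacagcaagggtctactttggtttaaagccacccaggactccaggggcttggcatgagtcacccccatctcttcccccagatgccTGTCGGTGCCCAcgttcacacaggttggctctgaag
Klrb1c (chr6:128785983-128788481, minus strand, crossing an intron): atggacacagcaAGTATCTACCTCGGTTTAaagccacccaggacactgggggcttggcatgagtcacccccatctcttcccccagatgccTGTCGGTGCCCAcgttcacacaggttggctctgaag
Klrb1f (chr6:129045948-129052499, plus strand, crossing an intron): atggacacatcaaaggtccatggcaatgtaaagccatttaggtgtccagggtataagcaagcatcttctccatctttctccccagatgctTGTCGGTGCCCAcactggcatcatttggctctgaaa
An ITIM with isoleucine, leucine or valine in the first place began at codon 5 of the Klrb1 stretch and at codon 6 of Klrb1b, and none was found in the other 3. Klrb1c matched with serine in that place, at codon 5. The cysteine motif stood at codon 31 of Klrb1a, Klrb1c and Klrb1f and at codon 32 of Klrb1b, and these letters were not in the Klrb1 stretch. A match is a description of the letters and was not tested against any measurement.

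The deposited values were estimated counts per gene, and library totals ran from 32713054 to 39543464 counts. TMM factors brought every library to a common size of 1000000 counts, and the scaled values are given as CPM. Each log2-fold change sets TNFR2 KO over wild-type and comes from the quasi-likelihood test of edgeR, whose p-values were adjusted over all genes tested (Benjamini-Hochberg). A gene was called where the adjusted p was under 0.05 and the log2-fold change was over 1 in size. The targeted gene, Tnfrsf1b, read 265 and 268 CPM for wild-type and 55.1 and 58.6 CPM for TNFR2 KO, with a change of -2.23 on the log2 scale (SE 0.0352, n = 2 per genotype, edgeR adjusted p = 1.35e-13). Some Tnfrsf1b reads thus remained in the KO libraries, and which cells they came from was not tested. Markers of the sorted cells were present: the 39 tested NK lineage genes, a list holding no Klrb1 gene, summed to 12188 and 12166 CPM in wild-type and to 17306 and 17345 CPM in TNFR2 KO, and 35 of them were higher, 1 lower and 3 not past the adjusted p. Several lists of markers of other cells were also summed. The 22 macrophage or monocyte markers reached 2927 and 2881 CPM in wild-type and 720 and 718 CPM in TNFR2 KO, with 20 called lower in KO and the other 2 higher by the adjusted p, and none of them was at 0. In bulk RNA, fewer cells of a type and less RNA per cell cannot be told apart.

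All 5 receptor transcripts were higher in TNFR2 KO than in wild-type Ly49H+ cells, and 4 of them (Klrb1, Klrb1a, Klrb1b and Klrb1c) passed the call, between 2.73-fold and 3.24-fold. The fifth, Klrb1f, was 1.54-fold higher. With libraries scaled on NK lineage genes all 5 stayed higher, but only Klrb1 and Klrb1a stayed called, and Klrb1f fell to a log2-fold change of 0.11. Of all genes tested, 1.56% were called higher and 24.2% were higher by the adjusted p alone. The Clec2 genes went separate ways: Clec2d was 1.33-fold higher, though it fell below the wild-type level when libraries were scaled on NK lineage genes, Clec2i was slightly lower and Clec2g, at very few counts, was called lower. Against these, 11.8% of all genes were called lower and 26.2% were lower by the adjusted p alone.

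**Figure D1:**
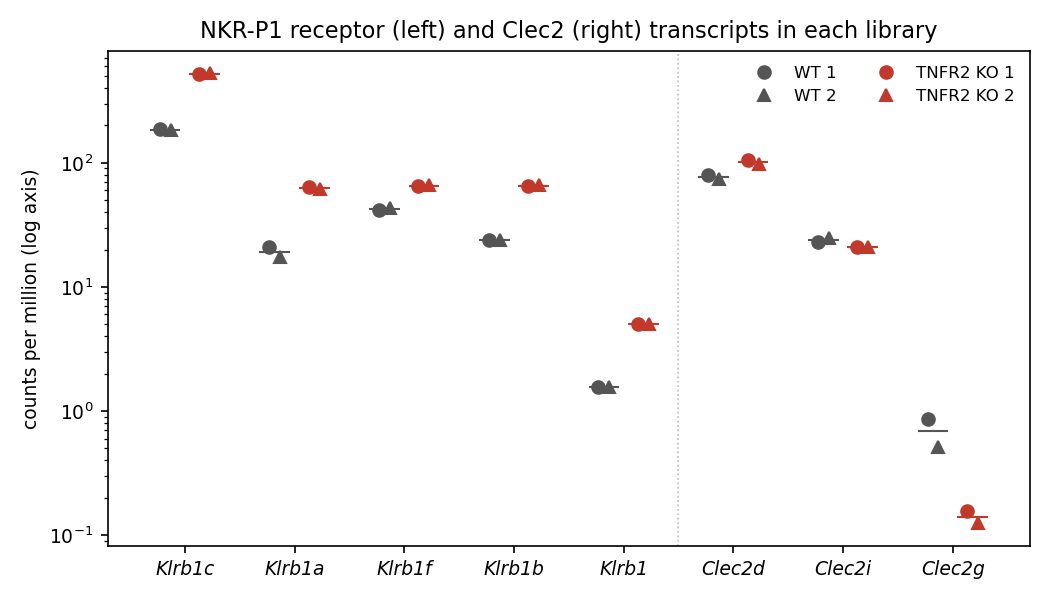
CPM (log axis) of the 5 receptor genes and the 3 Clec2 genes in each of the 4 libraries, with circles for library 1, triangles for library 2 and a short line at each genotype mean. The TNFR2 KO points lie above the wild-type points for all 5 receptors and for Clec2d (which reverses under the scaling on NK lineage genes) and below them for Clec2i and Clec2g.

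Klrb1c, the NK1.1 gene, was the most abundant of the family, per kilobase as well. The wild-type libraries held 185.6 and 184.7 CPM and the TNFR2 KO libraries 516.0 and 526.5 CPM. Both KO libraries were high, the genotypes did not overlap, and the duplicates differed by far less than the genotypes. The means were 185 ± 0.636 CPM (SD, n = 2) and 521 ± 7.41 CPM (SD, n = 2), a 2.82-fold difference, with a log2-fold change of 1.49 (SE 0.0259, edgeR adjusted p = 2.97e-13). Within each pool of spleens the log2 ratio was 1.48 and 1.51. By adjusted p, Klrb1c stood at rank 3 among the 215 genes called higher.

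Klrb1a, which encodes the activating-type receptor NKR-P1A, lay at 21.0 and 17.5 CPM in wild-type and at 63.8 and 61.2 CPM in TNFR2 KO. Its wild-type duplicates were less alike than those of the other called receptors, yet both were below both KO libraries. The fold was 3.24, with a log2-fold change of 1.70 (SE 0.0711, edgeR adjusted p = 1.09e-09) and log2 ratios of 1.60 and 1.80 in the pools.

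Klrb1f, the gene of the activating receptor NKR-P1F, lay at 41.99 and 43.3 CPM in wild-type and at 65.1 and 65.8 CPM in TNFR2 KO. The genotypes did not overlap. Its log2-fold change was 0.62 (SE 0.0436, edgeR adjusted p = 1.56e-07), below the size needed for a call, and the pools gave log2 ratios of 0.63 and 0.60.

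The inhibitory receptors differed between genotypes in the same direction. Klrb1b, the gene of the Clr-b receptor NKR-P1B, lay at 24.1 and 23.8 CPM in wild-type and at 64.4 and 66.1 CPM in TNFR2 KO. Both KO libraries were above both wild-type libraries, and the log2-fold change was 1.45 (SE 0.0486, edgeR adjusted p = 1.29e-10), with 1.42 and 1.47 in the pools. Klrb1, which encodes NKR-P1G and was the least abundant receptor per kilobase, held 59 and 58 counts in wild-type and 195 and 162 counts in TNFR2 KO. Scaled, these were 1.56 and 1.57 CPM against 5.04 and 5.05 CPM. The duplicates again lay close together and the genotypes apart, with a log2-fold change of 1.69 (SE 0.181, edgeR adjusted p = 7.62e-06).

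Summed over the 5 receptors, the level was 274 and 271 CPM in wild-type and 714 and 725 CPM in TNFR2 KO. Counted without regard to transcript length, Klrb1c made up 67.7% and 68.2% of the receptor counts in wild-type and 72.2% and 72.7% in TNFR2 KO. The share of Klrb1f was 15.3% and 16.0% in wild-type against 9.12% and 9.09% in TNFR2 KO. Klrb1b kept nearly the same share, 8.78% in each wild-type library against 9.02% and 9.11%.

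Ratios of counts within a library do not depend on the scaling. They are not corrected for length and are compared only between libraries. Klrb1c stood to Klrb1f as 4.42 and 4.27 in wild-type and as 7.92 and 7.998 in TNFR2 KO. Klrb1a over Klrb1f was 0.501 and 0.404 against 0.980 and 0.929, and Klrb1b over Klrb1f was 0.573 and 0.549 against 0.989 and 1.003, so neither ratio overlapped between genotypes. Klrb1c over Klrb1b moved little, from 7.71 and 7.76 to 8.01 and 7.97. Klrb1c and Klrb1b share some sequence, as given below, and the part of the read split in this ratio was not tested. At this group size the smallest two-sided p of an exact permutation test on any such ratio is 0.333, so the ratios are given without one.

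**Figure D2:**
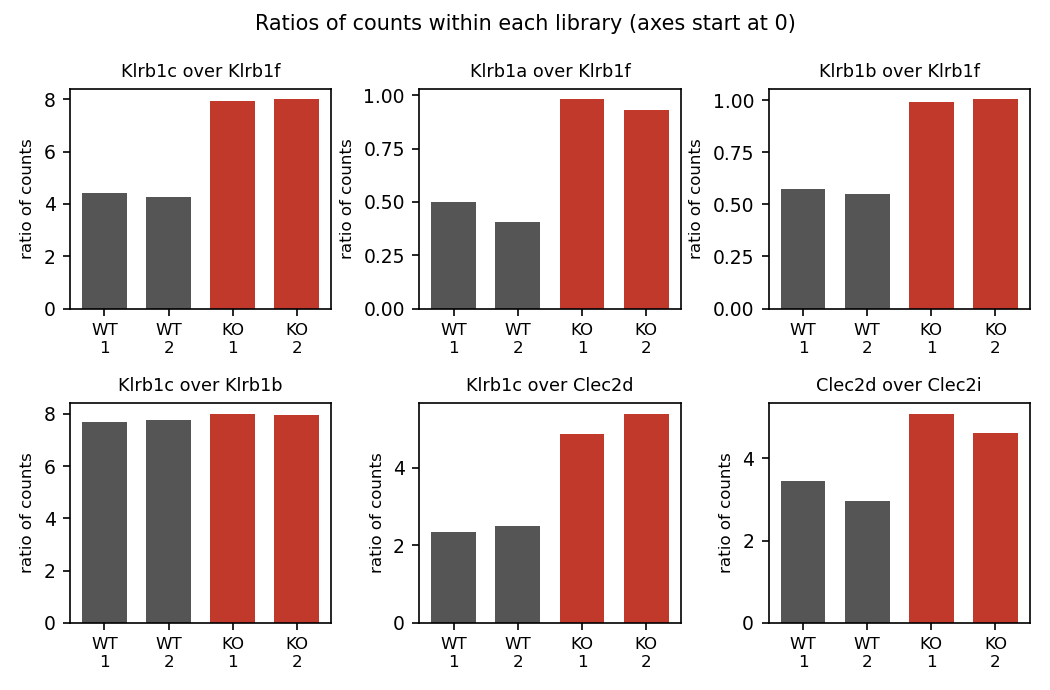
Ratio of counts of the named pair of genes in each library, as bars from 0, with wild-type in grey and TNFR2 KO in red. Klrb1a, Klrb1b and Klrb1c are each higher relative to Klrb1f in both KO libraries, Klrb1c over Klrb1b lies between 7.71 and 8.01 in all 4 libraries, and Klrb1c over Clec2d is 2.34 and 2.51 in wild-type against 4.87 and 5.39 in KO.

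Among the ligand genes, Clec2d (Clr-b, the partner of NKR-P1B) was the most abundant per kilobase. It lay at 79.4 and 73.7 CPM in wild-type and at 105.9 and 97.7 CPM in TNFR2 KO. The genotypes did not overlap, and the log2-fold change was 0.41 (SE 0.0478, edgeR adjusted p = 1.52e-05), with 0.42 and 0.41 in the pools. On the scaling to NK lineage genes it was -0.10 (edgeR adjusted p = 0.0851), so its direction depends on what the libraries are scaled to. Per 1000 counts of the NK lineage list, Clec2d stood at 6.51 and 6.06 in wild-type and at 6.12 and 5.63 in TNFR2 KO, and these values overlapped.

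Clec2i, the gene of Clr-g, lay at 22.9 and 24.9 CPM in wild-type and at 20.8 and 21.2 CPM in TNFR2 KO. The KO libraries were below the wild-type libraries by a small margin, with a log2-fold change of -0.19 (SE 0.0656, edgeR adjusted p = 0.0306). This did not hold when wild-type replicate 2 was left out (-0.12, edgeR adjusted p = 0.300), when TNFR2 KO replicate 1 was left out (-0.17, edgeR adjusted p = 0.0838) or with DESeq2 (-0.19, adjusted p = 0.175). Clec2d over Clec2i was 3.46 and 2.96 in wild-type and 5.09 and 4.62 in TNFR2 KO.

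Clec2g rested on 33 and 19 counts in wild-type and 6 and 4 counts in TNFR2 KO, or 0.870 and 0.515 CPM against 0.155 and 0.125 CPM. Both KO libraries were lower, with a log2-fold change of -2.27 (SE 0.564, edgeR adjusted p = 0.00517), and without wild-type replicate 1 the change was -1.84 (edgeR adjusted p = 0.116). The wild-type libraries, which held more Clec2g, also held more of the macrophage markers. Lyz2, the macrophage marker with the highest mean CPM, stood at 771 and 777 CPM against 114 and 110 CPM in KO. The part of those cells in the Clec2g counts was not tested.

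In all, 6 of the 8 genes were higher and 2 lower at an adjusted p under 0.05, where Clec2d is among the 6 and reverses on the NK lineage scaling. With both thresholds 4 were called higher and 1 lower. Beside these counts, 24.2% of all genes tested were higher and 26.2% lower by the adjusted p. With both thresholds 1.56% of them were called higher and 11.8% lower. The median log2-fold change was 1.49 over the 5 receptors and -0.003 over all genes tested. On the NK lineage scaling the median of all genes moved to -0.51. Relative to it Klrb1c was higher by 1.496, Klrb1b by 1.45, Klrb1a by 1.70, Klrb1 by 1.69 and Klrb1f by 0.62 on the log2 scale. A change of scaling shifts all genes nearly alike, so these differences repeat the TMM result and are no further test of it.

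In absolute terms on the NK lineage scaling, Klrb1a (1.19) and Klrb1 (1.18) stayed over a log2-fold change of 1. Klrb1c (0.98, edgeR adjusted p = 1.21e-11) and Klrb1b (0.94, edgeR adjusted p = 5.03e-09) fell just under it, and Klrb1f was at 0.11 (edgeR adjusted p = 0.0352). Clec2i was at -0.70 and Clec2g at -2.77. Per 1000 counts of the NK lineage list, Klrb1c was at 15.2 in each wild-type library and at 29.8 and 30.4 in TNFR2 KO, while Klrb1f was at 3.44 and 3.56 against 3.76 and 3.80.

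**Figure D3:**
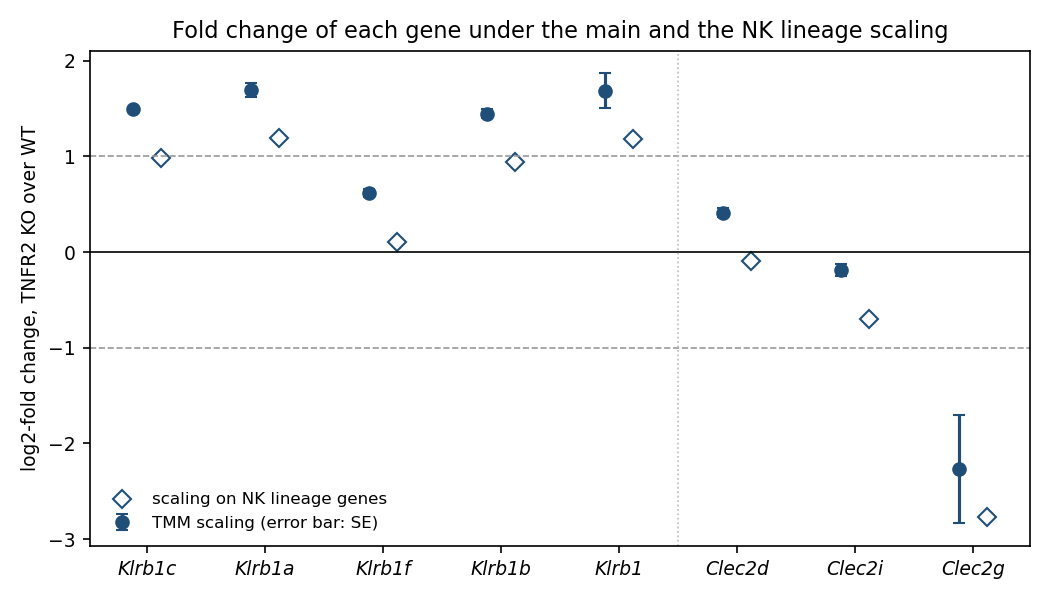
Log2-fold change, TNFR2 KO over wild-type, of each gene with TMM scaling (filled circles, error bar SE) and with libraries scaled on the NK lineage list (open diamonds, no error shown). Dashed lines mark a log2-fold change of 1 and -1. All 5 receptors stay above 0 on both, Klrb1a and Klrb1 stay above 1, and Clec2d moves from 0.41 to -0.10.

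To set the genes in order of level, CPM were divided by the length in kilobases of the longest protein-coding transcript in GENCODE M21. Klrb1c led in every library, at 70.8 and 70.4 CPM per kb in wild-type and 197 and 201 in TNFR2 KO. Clec2d came next, at 65.4 and 60.7 CPM per kb in wild-type, which is close to Klrb1c, and at 87.3 and 80.5 in TNFR2 KO, which is well below it. Klrb1f was at rank 3 in wild-type (24.7 and 25.5 CPM per kb) and at rank 4 in TNFR2 KO (38.3 and 38.7). Klrb1a was at rank 4 in wild-type (16.5 and 13.7) and at rank 3 in TNFR2 KO (50.1 and 48.0). Klrb1b and Clec2i did not differ beyond their spread in wild-type, at 10.8 and 10.7 against 9.84 and 10.7 CPM per kb, and were at 28.9 and 29.6 against 8.93 and 9.08 in TNFR2 KO. Klrb1 and Clec2g were the lowest in all 4 libraries.

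The receptor genes resemble each other closely, which bears on how reads were divided among them. In GENCODE M21, 30.8% of the 31-base stretches of Klrb1b, 21.2% of those of Klrb1c and 19.4% of those of Klrb1a also occurred in another gene, against 0.437% for Klrb1 and 0.289% for Klrb1f. The shared stretches of Klrb1a were mostly with Klrb1c (15.0%). Their longest common coding stretch, shown because reads within it could come from either gene, was 108 bases and includes the cysteine motif (capitals in the tails above, printed here in lower case).
Klrb1a (chr6:128620280-128622767, minus strand) and Klrb1c (chr6:128785953-128788433, minus strand): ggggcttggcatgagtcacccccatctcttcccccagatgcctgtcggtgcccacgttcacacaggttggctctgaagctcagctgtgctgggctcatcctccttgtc
Aligned over their coding sequences, Klrb1a and Klrb1c matched at 623 of 673 bases, while Klrb1f matched Klrb1 at 523 of 638 bases and Klrb1c at 457 of 639. Values of Klrb1a, Klrb1b and Klrb1c are therefore uncertain in how counts were split between them. Klrb1 and Klrb1f had whole deposited counts in all 4 libraries, as did Clec2d and Clec2g.

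A further gene of the annotation, Gm44511, overlaps both Klrb1b and Klrb1c and was examined after its values were seen. It shared 97.5% of its 31-base stretches with other genes, 67.4% with Klrb1b and 41.8% with Klrb1c. It lay at 3.03 and 2.09 CPM in wild-type and 2.58 and 3.96 CPM in TNFR2 KO, values that overlapped, with a log2-fold change of 0.34 (edgeR adjusted p = 0.281) that was -0.16 on the NK lineage scaling. Single libraries decided this value: it was 0.64 without TNFR2 KO replicate 1 (edgeR adjusted p = 0.0161), 0.65 without wild-type replicate 1 (0.0825), 0.11 without wild-type replicate 2 (0.781) and 0.02 without TNFR2 KO replicate 2 (0.965). Adding its counts to Klrb1b gave Klrb1b a log2-fold change of 1.37, and adding them to Klrb1c gave Klrb1c 1.48.

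The 8 genes lie on chromosome 6 within 577 kb. In GRCm38 with GENCODE M21, all protein-coding there, they follow the order Klrb1a (chr6:128609227-128623533, minus strand), Klrb1 (chr6:128705836-128723059, minus), Klrb1c (chr6:128778485-128789215, minus), Klrb1b (chr6:128813706-128826331, minus), Clec2i (chr6:128887588-128898167, plus), Clec2g (chr6:128934381-128984707, plus), Klrb1f (chr6:129045901-129057464, plus) and Clec2d (chr6:129180615-129186534, plus). The 4 called receptors are the 4 genes at the Klrb1a end. From 500 kb before the first to 500 kb beyond the last, 21 other genes were tested, of which 3 were called higher and 6 called lower, and 7 were higher, 8 lower and 6 not past the adjusted p. Over all genes tested, 1.56% were called higher and 11.8% called lower, and 24.2% were higher and 26.2% lower by the adjusted p.

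Values of neighbours were looked at after they were seen. The neighbours called higher were the lectin receptor genes Klrd1 (log2-fold change 1.07), Klrc2 (1.06) and Klrc1 (1.05). Klre1 (0.97), Klrk1 (0.81) and Klrc3 (0.69) were higher by the adjusted p without a call. All but Klrc3 belong to the NK lineage list, in which none was called on the NK lineage scaling. That scaling is set on the summed counts of the same list, so the lack of calls there was partly set in advance. On TMM scaling, higher values in this window were not limited to Klrb1 genes. Cd69, the activation marker gene next to Clec2d, lay at 79.7 and 73.0 CPM in wild-type and 77.01 and 76.0 CPM in TNFR2 KO, so the genotypes overlapped (log2-fold change 0.003, edgeR adjusted p = 0.961; its sign turned under other scalings). BC035044, which overlaps Clec2i on the opposite strand and shares no 31-base stretch with it, was at 22.8 and 23.2 CPM in wild-type and 15.6 and 14.8 CPM in TNFR2 KO, with a change of -0.60 on the log2 scale (edgeR adjusted p = 1.65e-05). The search for shared stretches covered both strands of the GENCODE M21 transcripts. The sources used here do not state the annotation or strand setting of the counting. How fully it separated reads of Clec2i and BC035044 was therefore not tested.

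**Figure D4:**
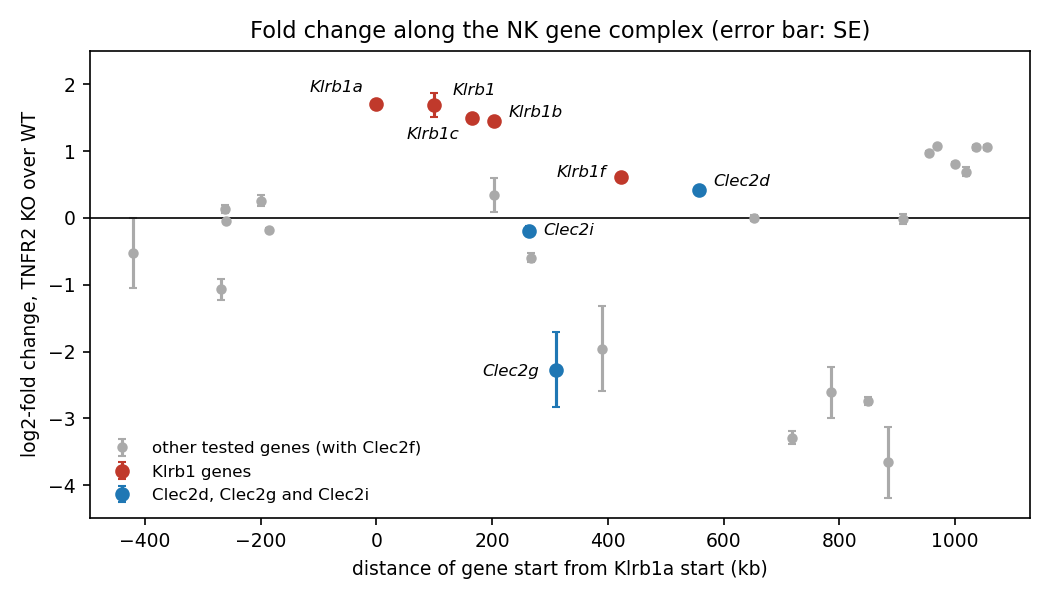
Log2-fold change, TNFR2 KO over wild-type (error bar SE), of the 29 tested genes around the family, by distance in kb of each gene's start from the start of Klrb1a. The 4 Klrb1 genes between 0 and 203 kb lie between 1.45 and 1.70, Klrb1f and Clec2d follow at 0.62 and 0.41 (Clec2d reverses on the NK lineage scaling), and Clec2i and Clec2g lie below 0.

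Of the other Klrb1 and Clec2 genes, 7 were in the table and 3 of those (Klrb1-ps1, Clec2j and Clec2m) had no counts. Clec2f, annotated as a transcribed pseudogene between Clec2g and Klrb1f, held 25 and 26 counts in wild-type and 2 and 10 counts in TNFR2 KO, and was the only 1 of them tested (log2-fold change -1.96, SE 0.639, edgeR adjusted p = 0.0230). Clec2h, the gene of Clr-f, was absent from the wild-type counts (0 and 0) and held 6.02 and 6.12 estimated counts in TNFR2 KO. Set against an assumed floor of 3 counts per wild-type library, the ratio was 2.13. That value depends on the floor, and the counts were too few to be tested. Clec2h shares 31-base stretches with Clec2d, Clec2i and Clec2g, and the part of their reads in its counts was not tested. Clec2e held 2, 0, 1 and 2 counts and Clec2l held 10, 6, 11 and 3 counts in wild-type 1, wild-type 2, KO 1 and KO 2, with no separation between genotypes.

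Downstream of the receptors, 20 genes of NKR-P1 signalling were tested: adaptors, proximal kinases, their substrates and the phosphatases recruited by ITIMs. Of these, 14 were higher, 4 lower and 2 not past the adjusted p with TMM scaling, and none was called, with a median log2-fold change of 0.20. Among all genes tested, 24.2% were higher and 26.2% lower by the adjusted p, and 1.56% were called higher and 11.8% called lower. The NK lineage scaling, which lowered the median of all genes to -0.51, gave 4 higher, 14 lower and 2 not past the adjusted p, with a list median of -0.31 and 1 called lower, so these counts follow the scaling. Lck, Zap70 and Cd247 belong to the NK lineage list as well, so on that scaling they were set partly against themselves.

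Fcer1g, the FcRγ chain that pairs with NK1.1, lay at 337 and 334 CPM in wild-type and 487 and 478 CPM in TNFR2 KO, with a change of 0.52 on the log2 scale (SE 0.0248, edgeR adjusted p = 3.53e-09) that became 0.01 on the NK lineage scaling. Tyrobp, the DAP12 adaptor of several other NK receptors, was at 390 and 400 CPM against 734 and 687 CPM (0.85, and 0.34 on the NK lineage scaling). Lck, the kinase that binds the cysteine motif, was at 595 and 619 CPM against 751 and 759 CPM (0.31). Fyn, a related kinase, was at 456 and 461 CPM against 571 and 568 CPM (0.31). Lck and Fyn turned to -0.19 and -0.20 on the NK lineage scaling, and Lck is itself in the NK lineage list. Of the genes not named by the rule, Ptpn6, which encodes SHP-1 and was picked after its values were seen, was at 259 and 267 CPM in wild-type and 180 and 177 CPM in TNFR2 KO (log2-fold change -0.56, and -1.07 on the NK lineage scaling). The other phosphatase genes of the list did not share this: Inpp5d was at 0.15 and Ptpn11 at 0.04 (edgeR adjusted p = 0.416) on TMM scaling. They were at -0.35 and -0.47 on the NK lineage scaling. The largest changes of the list on TMM scaling were those of Hcst (0.92) and Sh2d1b1 (0.90).

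The 8762 genes with 10 CPM or more on average, Klrb1c included, were compared by their pattern over the 4 libraries. The gene whose pattern lay nearest to Klrb1c was Klrb1b. The measure was the root mean square difference of centred log2 CPM, which was 0.0239 for this pair. Next came Styk1 (0.0368), at 12.4 and 12.8 CPM in wild-type and 36.9 and 37.5 CPM in TNFR2 KO, and Wdr95 (0.0372), at 6.85 and 7.32 CPM against 19.8 and 19.9 CPM. Klrb1a was at place 18, Klrb1f at place 263 and Clec2d at place 639, whereas Clec2i was at place 7162. The genes nearest to Clec2d were Sertad1 (0.0131), Fbxo30 (0.0132) and Zfp617 (0.0164), all with log2-fold changes between 0.40 and 0.41 on TMM scaling. Such nearness over 4 libraries rests on the genotype difference and the spread of the duplicates. Klrb1a, Klrb1b and Klrb1c also share 31-base stretches, and the part of the read split in their nearness was not tested.

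Beside the macrophage list, other marker lists also moved with genotype. The neutrophil or granulocyte precursor list (14 of 14 called lower in KO) summed to 948 and 970 CPM in wild-type and 94.1 and 90.1 CPM in KO. The mast cell or basophil list (8 of 10 called lower and 1 called higher) summed to 1368 and 1363 CPM against 168 and 169 CPM, and the dendritic cell or class II list (7 of 11 tested called lower) to 1768 and 1805 CPM against 156 and 155 CPM. The erythroid list (8 of 9 called lower) summed to 280 and 275 against 57.0 and 60.6 CPM, and the megakaryocyte or platelet list (6 of 7 called lower) to 40.6 and 37.9 against 3.93 and 4.80 CPM. The stromal or endothelial list had 3 of 6 tested called lower, but its sum was higher in KO, at 111 and 116 against 137 and 135 CPM. None was called in the T cell list (9 tested; 1256 and 1238 against 1174 and 1203 CPM) or the B cell list (3 tested; 52.4 and 52.9 against 73.6 and 70.2 CPM), and no listed marker was at 0 in all libraries. The ratio of Klrb1c to Klrb1f and the Klrb1c count per NK lineage count were higher in both KO libraries. The second of these restates the NK lineage scaling, on which Klrb1c was not called. The part of other cells in these differences was not tested.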

How the data were processed

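The authors sorted Ly49H+ cells, prepared poly-A selected stranded libraries, trimmed paired reads with Trimmomatic 1.4, assigned them to mm10 transcripts with kallisto 0.46.1 and summed them per gene with Tximport. The deposited values are expected counts (estimated counts) per gene symbol, not scaled between libraries. The transcript annotation and strand setting are not given in the sources used here. A row without a gene name (0.056% to 0.073% of counts) was left out.

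Counts were rounded, filtered (filterByExpr), scaled by TMM and tested in edgeR 4.0.16 in R 4.3.3 (quasi-likelihood test, genotype only, Benjamini-Hochberg adjustment over 13822 genes). DESeq2 1.42.0, other scalings and filters, a replicate block, each library left out and the addition of Gm44511 counts (chosen after seeing the data) were alternatives. The steps were tested on simulated data.

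Same-numbered libraries share a pool, per the labels. The replicate differences of the genotypes correlated at 0.021 across genes. Duplicates differed beyond counting noise (mean chi-square per gene 3.27 and 3.47).

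Named genes were the 8 members, their counted relatives, Tnfrsf1b, the 4 signalling genes of highest mean CPM and any called, and the 3 nearest patterns to Klrb1c and to Clec2d. Members and lists were chosen with earlier results of these data known. Positions and sequences come from GENCODE M21 on GRCm38.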

Additional observations from a re-analysis of the deposited data

How the results depend on the processing

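Leaving out single libraries, the replicate block, DESeq2 and the other scalings left the directions of the 5 receptors as they were. In the paired fit with a replicate block 1830 genes were called, 5 of the 8 family genes among them. There 8 of the 8 passed the adjusted p, so no family call changed. In the main fit, 24.2% of all genes tested were higher and 26.2% lower by the adjusted p. Scaling on NK lineage genes gave 64 genes called higher and 2551 called lower, with 3 family genes called, and reversed Clec2d (-0.096), Gm44511 (-0.16) and Cd69 (-0.51). A mean of at least 10 CPM gave 478 genes called, 58 higher and 420 lower, with 3 family genes called, since Klrb1 and Clec2g then drop out, and reversed Cd69 (-0.033), as did library size alone (-0.057). Without 1 library at a time Cd69 ran from -0.050 to 0.076, 4 to 5 family genes were called, and Clec2g ran from -2.59 to -1.84, losing its adjusted p without wild-type replicate 1. Depth limits Clec2g, which held at most 33 counts in a library, and its relatives with fewer. The cause of these changes was not tested.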
